A study of Mus musculus with 6 samples.

Results

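The genes described here are 30 transcription factors, 1 coactivator among them, that pattern embryonic mesenchyme and lie outside the Hox clusters. They are T-box, homeobox, Eya, Pax, forkhead, Meis, Sox and zinc finger genes, and the list was fixed by name. Each gene was read from the probe sets that the platform annotation ties to it alone, taking the probe set with the highest mean over the 6 arrays. All 30 were found among the 18193 genes with 1 symbol, and 21 of them had a mean log2 value of at least 3 and were tested. RNA came from sarcoma cells of mouse strain C57BL6/J, 3 samples of the genotype Dicer Heterozygote and 3 of the genotype Dicer Null. All were grown to confluence, with no agent named, and measured on 3′ expression arrays. The design text calls the samples lines and the titles call them replicates. No source used here says how the lines arose, which part of Dicer1 was lost, or whether the 3 samples of a genotype were separate clones or cultures. The p-values therefore measure the spread between these samples, which may be technical.

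Mesenchyme is the loose, migratory tissue of the embryo that gives rise to connective tissue, bone, cartilage and smooth muscle. Its cells carry combinations of transcription factors that record where in the body and from which layer they arose, and adult fibroblasts and tumours derived from mesenchyme often keep part of that code. Mature microRNAs are released from their hairpin precursors by the ribonuclease Dicer, and cells without it lose most of them. The series title names let-7, a microRNA family of differentiated cells, together with a developmental program of mid-gestation. The comparison of null with heterozygous cells asks which parts of an embryonic program differ between cells of these genotypes. Loss of microRNAs was not measured here. Mature let-7 sequences, whose release needs Dicer, are shown because the study is about them, with the seed (bases 2 to 8), the part that pairs with messenger RNA, in capitals. They are from RefSeq on GRCm38.p6 (chr13:48538239-48538260, minus strand, chr17:17830366-17830387, plus strand, and chr9:106178846-106178867, plus strand), and no let-7 level was read here.
mmu-let-7a-5p: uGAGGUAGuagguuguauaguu
mmu-let-7e-5p: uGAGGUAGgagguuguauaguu
mmu-let-7g-5p: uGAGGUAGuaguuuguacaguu
The 3 differ outside the seed and share it.

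Every array gave a value for 45037 probe sets on the log2 scale, between 0.40 and 14.18. The number of arrays limits the precision. A log2 value of 3 serves as the lower bound of signal here because sensory receptor genes, of olfactory, vomeronasal or trace amine type, had means below it for 78 of 81 probe sets. The targeted gene did not separate the labels: 1 probe set of Dicer1 read 8.60, 8.19 and 8.17 in heterozygous and 8.56, 8.40 and 8.42 in null arrays (log2 difference 0.14, limma adjusted p = 0.693), and the other differed by 0.27 (0.573). Which part of Dicer1 these probes match, and whether it lies in the deleted part, is not given in the labels, so these values do not check them. Of 12 markers of fibroblasts and related mesenchymal cells, 10 or 11 were at 3 or more in each array, with vimentin (Vim) at 13.71 to 13.84 and the collagen gene Col3a1 at 12.63 to 13.02. None of the 11 tested ones was called, but the list was not flat. Picked after their values were seen, the growth factor receptor Pdgfra differed by -1.63 and S100a4 by -1.37, both without overlap (limma adjusted p = 0.0593 and 0.0570), and the proteoglycan gene Lum by 2.82 (0.116). Thy1 was under 3 in 5 arrays. Of 7 endothelial markers 0 reached 3 in 5 of the arrays, and 1 did in null replicate 2. Heterozygous replicate 3 stood apart by its proliferation genes: the median deviation of 19 such genes from their own means was -0.93 in that array. It was -0.06 and 0.05 in heterozygous replicates 1 and 2, and 0.22, 0.58 and 0.17 in null replicates 1, 2 and 3. The genotypes differed as well: all 19 genes had higher means in null arrays, with a median log2 difference of 0.66. None was called, and 10 of the 19 (52.6%) did not overlap, against 14.9% of all tested genes with higher null values. Fits below that use this median as a covariate therefore cannot separate proliferation from genotype. Heterozygous replicate 1 had the highest epithelial marker level, with a log2 summed level of 10.03 against 5.89 to 8.64 in the other arrays and 4 of 8 markers at 3 or more. In bulk samples such as these, fewer cells of a type and less RNA per cell cannot be told apart.

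None of the 21 tested members had a Benjamini-Hochberg adjusted p under 0.05 in limma. Of the 11425 tested genes 3.46% did (1.45% higher and 2.0% lower in null arrays). For a list of 21, a count of 0 lies near that share. At an unadjusted p under 0.05 there were 6 members, 4 with lower and 2 with higher values in null arrays, which is 28.6% against 24.0% of all tested genes (13.5% lower and 10.5% higher). The groups did not overlap for the same number, 6 of 21 (28.6%), against 32.2% of all tested genes (17.3% lower and 14.9% higher). Both shares lay near those of all genes. At an unadjusted p under 0.05 the count was 3 without heterozygous replicate 2, 4 without null replicate 2 and 9 with gene-by-gene array weights. With a minimum mean of 4 it was 3 of 16 members, against 2456 of 10359 tested genes. On the values themselves, without the bound of 3, 7 of the 21 (33.3%) differed at least 2-fold, against 15.3% of all tested genes. In the 2 lists described below, 12 of 31 tested relatives (38.7%) and 5 of 30 tested partners and signals (16.7%) did so. The share of the members was thus not particular to them. Of the 7 members, 3 (Dlx5, Msx2 and Prrx2) also ranged over more than 2 log2 units within a group. With the fold taken from 3, Tbx2, among these 7, was at least 1.56-fold higher in null arrays, a bound under 2. The median log2 difference, null minus heterozygous, was -0.36 over the 21 and -0.01 over all tested genes, with 14 members below 0 and 7 above (51.3% and 48.7% of all tested genes). When the 9 dim members were counted too, the median came to -0.04. Over the 21 alone, leaving out heterozygous replicate 2 gave a median of -0.14, leaving out null replicate 3 gave -0.18, and leaving out null replicate 1 gave -0.54. A gene such as Tbx2, Msx2 or Foxf1, whose mean lay under 3 in one group, passed the filter only through the other, so the 21 are not an even sample of the 30. Tbx2, Msx2 and Foxf1 were all among the 6 at an unadjusted p under 0.05, the 6 without overlap and the 7 at 2-fold.

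**Figure D1:**
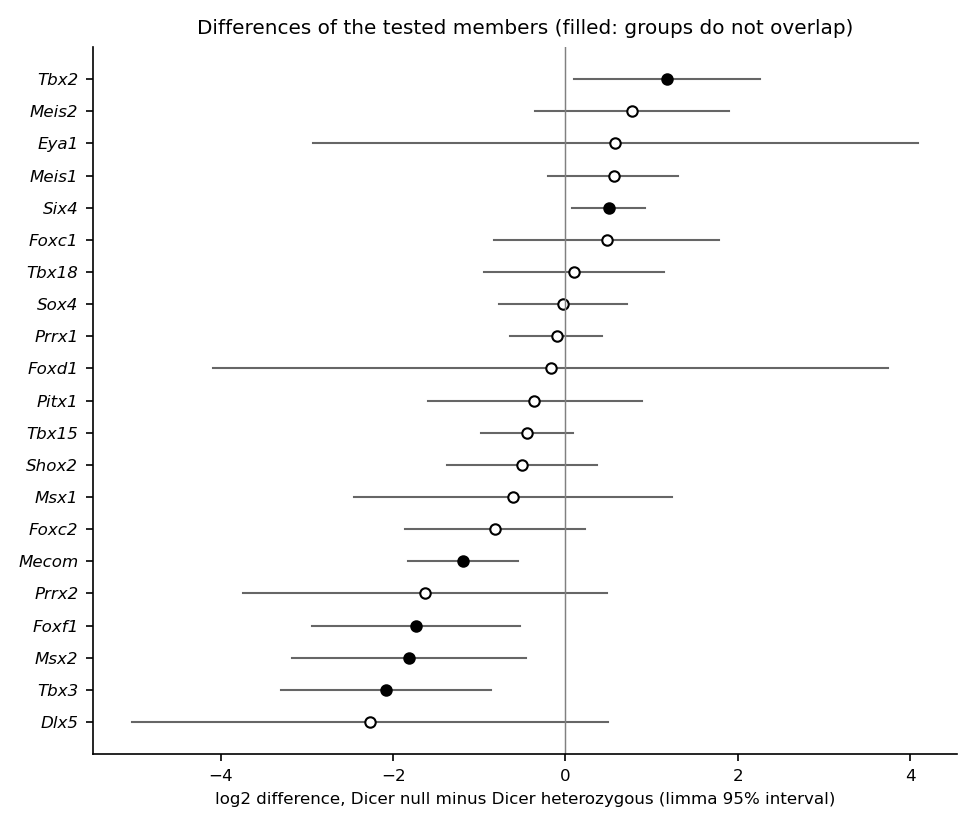
Log2 difference between Dicer null and Dicer heterozygous arrays for each of the 21 tested members, with limma's 95% interval (3 arrays per group); filled points are members whose 3 null values all lay on one side of the 3 heterozygous values. The differences run from -2.27 (Dlx5) to 1.18 (Tbx2), and Tbx3, Msx2, Foxf1, Mecom, Tbx2 and Six4 are the 6 filled points.

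Mecom, which encodes the zinc finger protein Evi1 and its longer Mds1-Evi1 form, came nearest to the threshold. It read 9.99, 9.91 and 10.30 in the heterozygous arrays and 9.29, 8.93 and 8.41 in null replicates 1, 2 and 3. All null values lay below all heterozygous ones, with means of 10.1 ± 0.21 and 8.88 ± 0.44 (SD, n = 3). The log2 difference was -1.19 (SE 0.27, limma adjusted p = 0.0677), a level 2.28-fold lower. Over all alternatives the difference of Mecom lay between -1.40 and -0.96 and its limma adjusted p between 0.0444 and 0.198. It was called with gene-by-gene array weights alone, at -1.07, a setting under which 13.1% of all genes were called. The other probe sets of Mecom read at most 1.71 in any array and were not tested.

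Among the T-box genes, which bind DNA through a shared domain and shape limb, heart and body wall, Tbx3 had the largest difference. Tbx3 is a repressor active in limb and mammary mesenchyme and known for holding back senescence. Its brightest probe set read 9.36, 9.75 and 10.52 in heterozygous and 8.66, 6.94 and 7.78 in null arrays. The groups did not overlap, and heterozygous replicate 3 was the highest array. Their means were 9.88 ± 0.59 and 7.79 ± 0.86 (SD, n = 3), 4.24-fold lower in null arrays (log2 difference -2.08, SE 0.50, limma adjusted p = 0.0799). The name of this probe set carries an x, the mark of probes that may also match other transcripts. The next brightest probe set of Tbx3, without that mark, read 8.42, 8.62 and 10.50 against 7.95, 6.26 and 7.95, again without overlap (log2 difference -1.79, limma adjusted p = 0.200). The remaining tested probe set of Tbx3 gave -0.74. Without heterozygous replicate 3 the difference of the brightest probe set was -1.76 (limma adjusted p = 0.117), and with the proliferation median of each array as a covariate it was -1.25 (limma adjusted p = 0.242). That covariate was itself higher in all null than in all heterozygous arrays, so its part and that of genotype cannot be told apart. With gene-by-gene array weights Tbx3 was called (-1.79, limma adjusted p = 0.0417), and over all alternatives its adjusted p lay between 0.0417 and 0.242.

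Tbx2, the closest relative of Tbx3 and likewise a repressor, lay on the other side. It read 2.23, 2.62 and 2.53 in heterozygous arrays and 2.74, 4.53 and 3.65 in null arrays. Signal above 3 was thus seen in null replicates 2 and 3 alone, and these arrays held the lowest values of Tbx3. The log2 difference of Tbx2 was 1.18 (SE 0.45, limma adjusted p = 0.186), and with values below 3 set to 3 it was 0.73. Tbx2 and Tbx3 were not compared with each other by a test.

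Tbx15, a factor of dermal and skeletal mesenchyme, read 10.66, 11.17 and 11.20 in heterozygous and 10.80, 10.43 and 10.46 in null arrays. The groups overlapped through replicate 1 of each, and the log2 difference was -0.45 (limma adjusted p = 0.281). Tbx18, a factor of somites, ureter and epicardium, lay between 9.04 and 10.72 in heterozygous and between 9.73 and 10.19 in null arrays, with a log2 difference of 0.10 (95% interval -0.94 to 1.14). The limb factors Tbx4 and Tbx5 stayed under 3 in all 6 arrays. Tbx1, a factor of the pharyngeal arches, read 2.34, 2.20 and 2.36 against 2.95, 3.09 and 3.54, a separation at the edge of the signal range that was not tested.

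**Figure D2:**
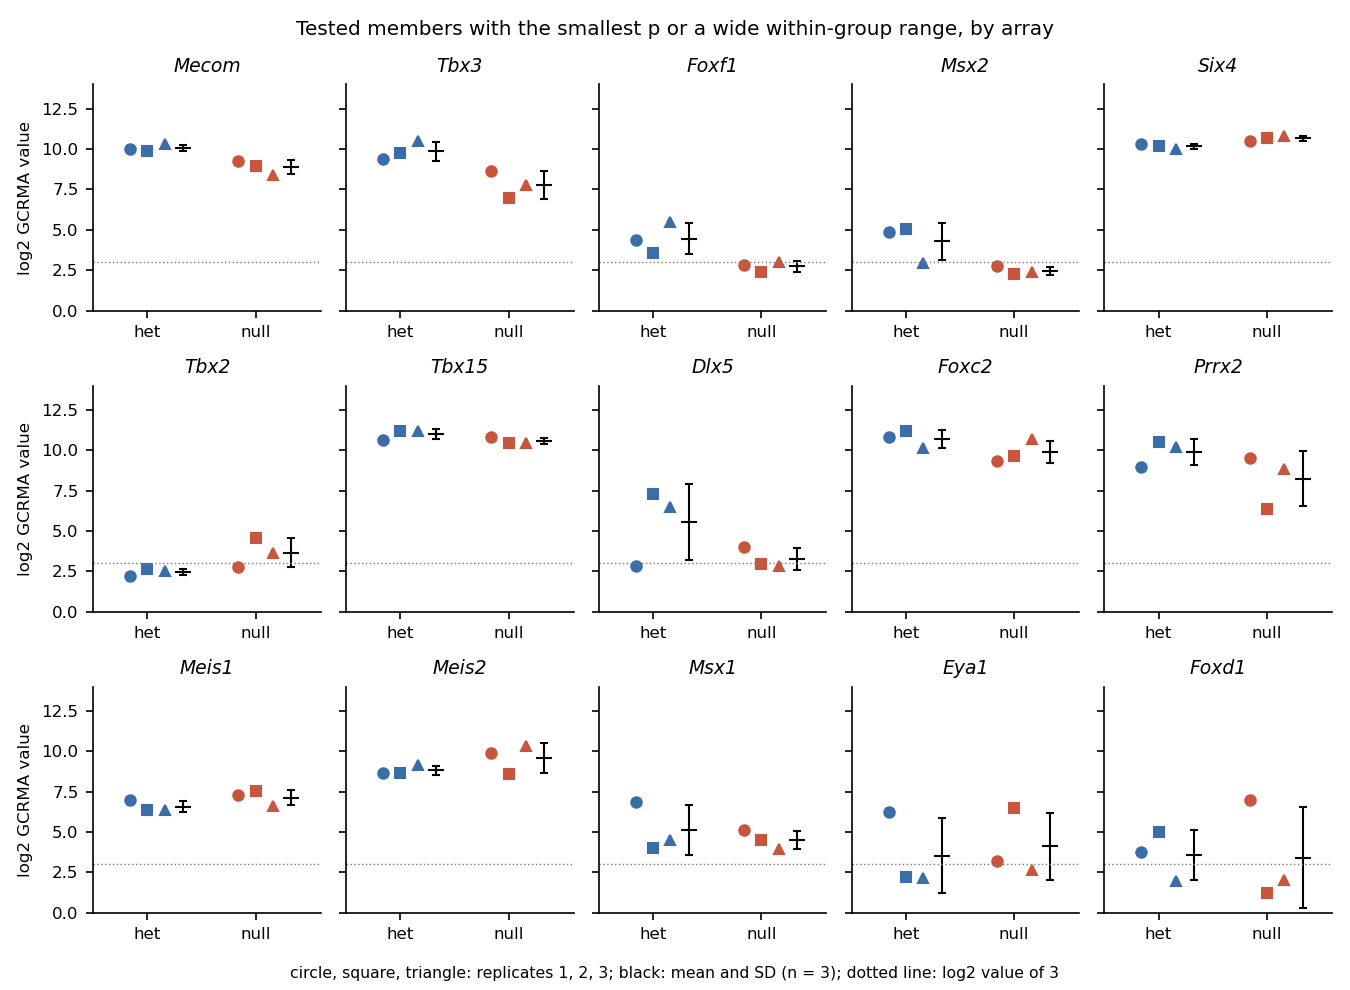
Log2 GCRMA value in every array for 15 tested members, the 12 with the smallest p and those whose 3 arrays of one genotype span over 2 log2 units; blue is heterozygous, red is null, and black marks give the mean and SD (n = 3). The null arrays lie below the heterozygous ones for Mecom, Tbx3, Foxf1 and Msx2 and above them for Six4 and Tbx2. Eya1 is high in 1 array of each genotype, and Foxd1 is above 3 in heterozygous replicates 1 and 2 and in null replicate 1.

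The paired-type homeobox genes Prrx1 and Prrx2 mark limb and craniofacial mesenchyme, and Prrx1 is also a widely used marker of fibroblast progenitors. Prrx1 was strongly expressed in both groups, at 11.74 to 12.43 in heterozygous and 11.88 to 12.11 in null arrays (log2 difference -0.10, 95% interval -0.64 to 0.43). Its 4 other tested probe sets gave log2 differences of 0.15, -0.11, 0.26 and 0.14. Prrx2 read 8.96, 10.48 and 10.17 in heterozygous and 9.52, 6.34 and 8.86 in null arrays. Null replicate 2 was far below the others, and the groups overlapped. The log2 difference of Prrx2 was -1.63 (SE 0.87, limma adjusted p = 0.316), but -0.68 without null replicate 2. Shox2, which shapes the proximal limb and the sinus node, lay at 10.24 to 11.37 and 10.08 to 10.86 (log2 difference -0.50, limma adjusted p = 0.448, and -0.03 with the proliferation covariate). Pitx1, which specifies the hindlimb, lay at 4.46 to 6.37 and 4.92 to 5.49 (log2 difference -0.36, limma adjusted p = 0.720). Signal of the hindlimb factor Pitx1 was thus present in all 6 arrays, while that of its partner in the hindlimb, Tbx4, was below 3.

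Msx1, Msx2 and Dlx5 are homeobox genes that act downstream of bone morphogenetic proteins in limb, tooth and skull. Msx2 read 4.84, 5.06 and 2.96 in heterozygous and 2.75, 2.29 and 2.36 in null arrays. The groups did not overlap, though heterozygous replicate 3 lay near the null arrays. The other probe set of Msx2 stayed between 1.52 and 2.09 in all arrays and was not tested. Set against a log2 value of 3, Msx2 was at least 2.44-fold lower in null arrays (log2 difference of the values themselves -1.82, SE 0.56, limma adjusted p = 0.129). Without heterozygous replicate 3 the difference was -2.48 and passed (limma adjusted p = 0.0135), and with gene-by-gene array weights it was -2.33 and passed as well (0.0164), with adjusted p values of up to 0.301 in the other alternatives. Dlx5 read 2.85, 7.29 and 6.46 in heterozygous and 4.03, 2.96 and 2.81 in null arrays. High signal was confined to heterozygous replicates 2 and 3, and replicate 1 lay with the null arrays. Its log2 difference of -2.27 (SE 1.14) had a limma adjusted p of 0.290. Without heterozygous replicate 1 the difference of Dlx5 was -3.61 (limma adjusted p = 0.0339), and without heterozygous replicate 2 it was -1.39 (0.541), with adjusted p values of up to 0.598 in the other alternatives. Msx1 read 6.86, 4.03 and 4.48 against 5.10, 4.49 and 3.95, with heterozygous replicate 1 the highest array, and its log2 difference was -0.61 (limma adjusted p = 0.676). The other probe set of Msx1 lay between 2.86 and 3.50 in all arrays and was also highest in heterozygous replicate 1.

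Six4, a homeobox factor of muscle and placode precursors, was the brightly expressed member with higher values in all null arrays. Its brightest probe set, which carries an x, read 10.30, 10.18 and 10.02 in heterozygous and 10.50, 10.68 and 10.83 in null arrays. The groups did not overlap, and the level was 1.42-fold higher in null arrays (log2 difference 0.50, SE 0.17, limma adjusted p = 0.157). The next brightest probe set of Six4, without that mark, gave 0.54, and the dimmest tested one read 7.03, 7.46 and 8.15 against 8.25, 8.97 and 9.58, a log2 difference of 1.39 (SE 0.43, limma adjusted p = 0.128). All 3 tested probe sets of Six4 thus separated the groups, and none was called. Eya1, a phosphatase that serves Six4 and its relatives as coactivator, was high in 1 array of each group. It read 6.24, 2.19 and 2.18 in heterozygous and 3.19, 6.49 and 2.67 in null arrays (log2 difference 0.58, 95% interval -2.93 to 4.09). Its 2 other probe sets stayed between 1.67 and 2.19 in all arrays, so the high values rest on 1 probe set. Six2, a factor of kidney progenitors and head mesenchyme, lay under 3 throughout, at 1.43 to 1.76.

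The forkhead genes Foxc1 and Foxc2 act in paraxial and head mesenchyme. Foxc1 lay at 8.67 to 10.31 in heterozygous and 9.40 to 10.87 in null arrays (log2 difference 0.48, limma adjusted p = 0.639). Foxc2 read 10.80, 11.19 and 10.12 against 9.34, 9.65 and 10.67. The groups overlapped through replicate 3 of each, and the log2 difference was -0.82 (limma adjusted p = 0.310). Foxf1, a Hedgehog target of gut and lung mesenchyme, read 4.34, 3.54 and 5.50 in heterozygous and 2.81, 2.37 and 3.00 in null arrays. The groups did not overlap, and Foxf1 was at least 2.75-fold lower in null arrays (log2 difference of the values -1.73, SE 0.50, limma adjusted p = 0.113). The other probe set of Foxf1 read at most 2.80 in any array and was not tested. With the proliferation median as a covariate, which itself differed between the genotypes, the difference of Foxf1 was -0.66. Foxd1, a gene of kidney stroma and of dermal fibroblast precursors, read 3.76, 5.02 and 1.96 against 6.99, 1.20 and 2.03. Null replicate 1 held the highest value of Foxd1 and null replicate 2 the lowest (log2 difference -0.17, 95% interval -4.09 to 3.74).

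Meis1 and Meis2 are homeobox cofactors that bind DNA together with Pbx and Hox proteins and mark the proximal limb. Meis1 read 6.98, 6.36 and 6.39 in heterozygous and 7.27, 7.54 and 6.59 in null arrays, with an overlap through heterozygous replicate 1 (log2 difference 0.56, limma adjusted p = 0.336). Meis2 read 8.63, 8.67 and 9.16 against 9.89, 8.57 and 10.32, with null replicate 2 as low as the heterozygous arrays (log2 difference 0.77, limma adjusted p = 0.368, and 1.28 without null replicate 2). The 3 other tested probe sets of Meis2 gave 0.56, 0.32 and -0.35. Sox4, a high mobility group factor of progenitors, differed by -0.03 (95% interval -0.77 to 0.72) at 9.76 to 10.88 and 10.10 to 10.49. Its partner Sox11 lay under 3 in all 6 arrays, with null values of 2.20, 2.22 and 2.82 above heterozygous ones of 1.89, 1.72 and 1.90.

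Of the 9 members that were not tested, 6 lay under 3 in every array: Tbx4, Tbx5, Six2, Sox11, Tcf21 and Zic1. Tcf21, a factor of visceral and cardiac fibroblasts, and Zic1, a zinc finger factor of the neural tube and dorsal somite, read at most 1.62 and 1.47. The other 3 reached 3 in 1 or 2 arrays. Pax3, a factor of neural crest and muscle precursors, read 5.81 in null replicate 1, 2.17 and 2.65 in the other null arrays and 1.86, 1.41 and 1.66 in heterozygous ones. Both other probe sets of Pax3 were also highest in null replicate 1, at 4.0 and 3.02. Alx1, a homeobox gene of head mesenchyme, read 4.47 in heterozygous replicate 1 and 4.22 in null replicate 1, against 1.84 to 2.15 in the other 4 arrays. Tbx1 was described above.

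**Figure D3:**
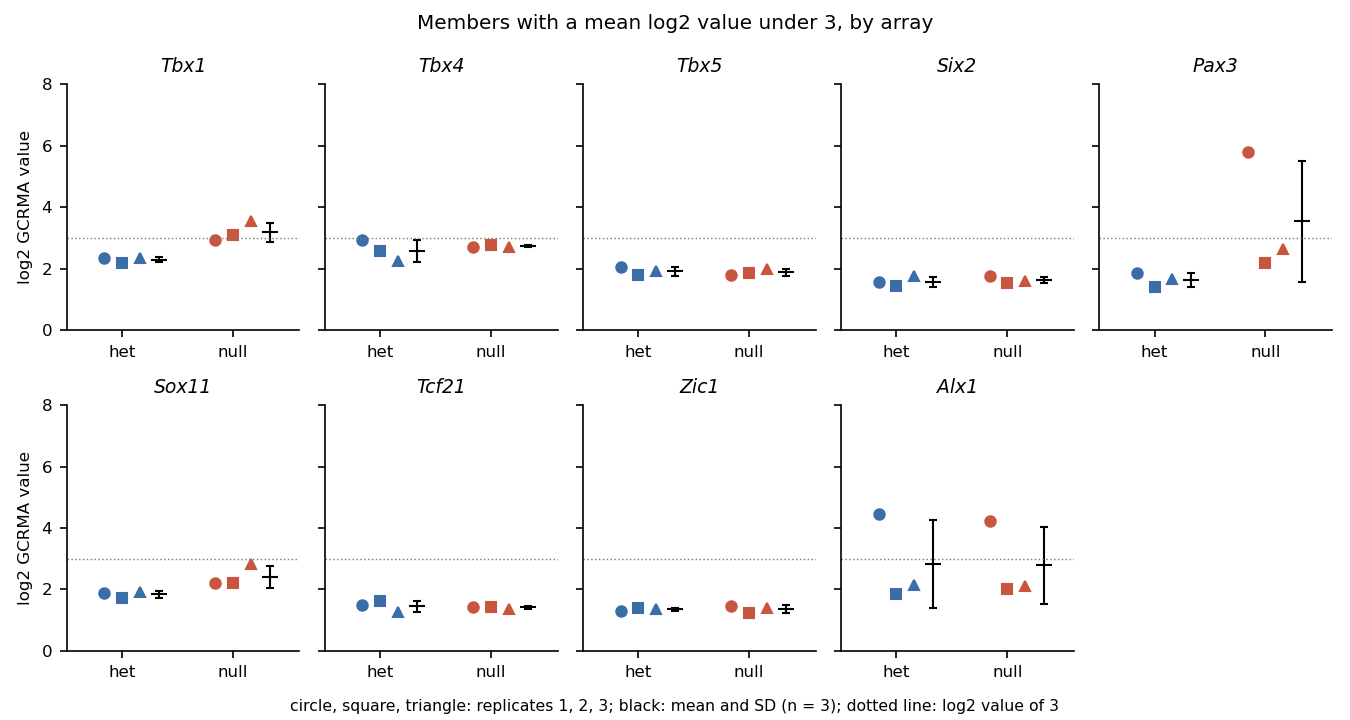
Log2 GCRMA value in every array for the 9 members whose mean lay under 3, with the group mean and SD (n = 3) in black and a dotted line at 3. Of the 9, 6 members stay under the line in all arrays, Pax3 exceeds it in null replicate 1, Alx1 in replicate 1 of each genotype and Tbx1 in 2 null arrays.

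Several members varied widely among arrays of one genotype. The range over a group's 3 arrays exceeded 2 log2 units in at least 1 group for 6 of the 21 tested members (28.6%). It did so for 9.67% of all tested genes. Of the 2 lists described below, 6 of 31 tested relatives (19.4%) and 10 of 30 tested partners and signals (33.3%) also had such a range. A wide range was thus not particular to the members. In heterozygous arrays 5 members did so (7.50% of all tested genes) and in null arrays 3 (3.67%). They were Foxd1 (3.06 in heterozygous and 5.79 in null arrays), Dlx5 (4.44 in heterozygous), Eya1 (4.06 and 3.82), Prrx2 (3.18 in null), Msx1 (2.83 in heterozygous) and Msx2 (2.10 in heterozygous). The median range was 1.16 in heterozygous and 0.95 in null arrays over the members, and 0.61 and 0.44 over all tested genes. In both groups the median ranges of relatives and of partners and signals lay between these values. Different arrays carried the high values: heterozygous replicate 1 for Eya1 and Msx1, null replicate 1 for Foxd1, and null replicate 2 for Eya1. Heterozygous replicate 1 also held the highest epithelial marker level given above, which rests on Krt18 and Krt19. The part of that level in these values was not tested. With a minimum mean of 4 in place of 3, which removes Msx2, Eya1 and Foxd1, 3 members remained over that range. By array, the median of the members relative to each gene's mean was -0.09, 0.13 and 0.36 in heterozygous replicates 1, 2 and 3 and 0.01, -0.46 and -0.33 in null replicates 1, 2 and 3. Heterozygous replicate 3 held the highest value of 8 of the 21 members and null replicate 2 the lowest of 8. The median of 11 tested fibroblast markers put the arrays in the order of the members' medians, but for a tie of heterozygous replicate 2 and null replicate 1. It was -0.02, 0.16 and 0.60 in heterozygous and 0.16, -0.34 and -0.31 in null replicates 1, 2 and 3. The median of only 2 tested neural markers, Tubb3 and Stmn2, gave that order too, at -0.46, 0.77 and 1.48 in heterozygous and -0.07, -0.89 and -0.82 in null arrays. Stmn2 read 3.34, 4.27 and 8.14 against 2.43, 2.64 and 2.02 (limma adjusted p = 0.215), and Tubb3 overlapped between the groups. Of 6 neural markers found, 1 or 2 were at 3 or more in each array. The part of either marker list in the members' values was not tested.

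**Figure D4:**
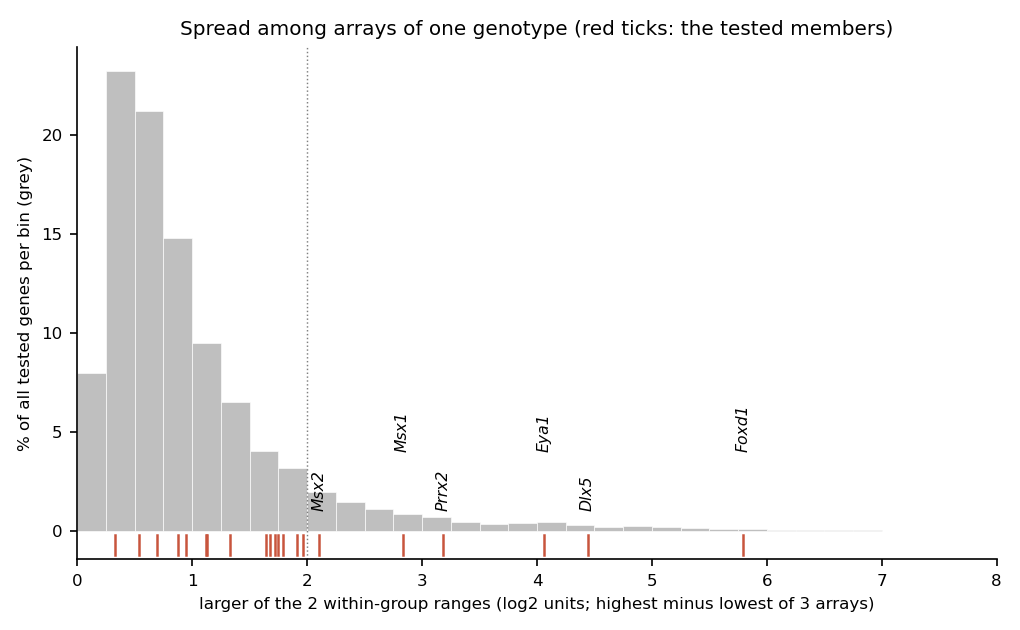
Larger of the 2 within-group ranges (log2 units) for all 11425 tested genes as grey bars in percent per bin, with red ticks for the 21 tested members and a dotted line at 2 log2 units. The 6 ticks, named in the plot, lie beyond the line, where 9.67% of all tested genes lie.

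Of the 21 tested members 11 had more than 1 tested probe set. Among their 21 other tested probe sets 17 had the sign of the one used and 4 the opposite sign, and none was called. The opposite signs were in Prrx1 (3) and Meis2 (1), and all 4 of these probe sets differed by less than their standard errors.

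Other genes of the same families, 82 by name, of which 74 were on the annotation, had 31 tested members. Of the 31, 0 were called higher and 1 was called lower in null arrays, against 1.45% and 2.0% of all tested genes. Their groups did not overlap in 17 cases (54.8%), 9 with higher and 8 with lower null values, against 32.2% of all tested genes, and their median log2 difference was 0.10. Prdm16, Eya4 and Zic2, all among the 17, had a mean under 3 in 1 group and passed the filter only through the other. The 1 called lower was Prdm16, the closest relative of Mecom and a zinc finger factor of brown fat, palate and muscle precursors. It read 5.78, 5.71 and 7.43 in heterozygous and 1.77, 1.92 and 1.92 in null arrays. The null arrays were all below the signal bound, so Prdm16 was at least 9.89-fold lower there (log2 difference of the values -4.44, SE 0.47, limma adjusted p = 0.0169). Its 3 other probe sets had means under 3, and all gave lower group means in null arrays, by -1.40, -0.49 and -0.28. Without null replicate 1, 2 or 3 the limma adjusted p of Prdm16 was 0.0516, 0.0793 and 0.0736, while the difference stayed between -4.73 and -3.87 in all fits without 1 array.

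Cofactors and signals of embryonic mesenchyme, 38 by name, had 30 tested members. Again 0 were called higher and 1 was called lower in null arrays, against 1.45% and 2.0% of all tested genes. Their groups did not overlap in 8 cases (26.7%), against 32.2% of all tested genes, and their median log2 difference was 0.03. Rarb, among the 8, had a heterozygous mean of 2.79 and passed the filter only through the null arrays. Rarg, a nuclear receptor for retinoic acid, a signal that sets proximal identity in the limb, was called, at a level 2.56-fold lower in null arrays. It read 7.67, 8.03 and 7.57 in heterozygous and 6.30, 6.27 and 6.63 in null arrays (log2 difference -1.36, SE 0.20, limma adjusted p = 0.0313). Its other tested probe set gave -0.67 (limma adjusted p = 0.203). Rarg lost its call in 5 of the 6 fits without 1 array, with limma adjusted p values of 0.0561 and 0.0932 without heterozygous replicates 1 and 2 and 0.0951, 0.110 and 0.0895 without null replicates 1, 2 and 3. The difference of Rarg stayed between -1.47 and -1.22 in those fits.

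**Figure D5:**
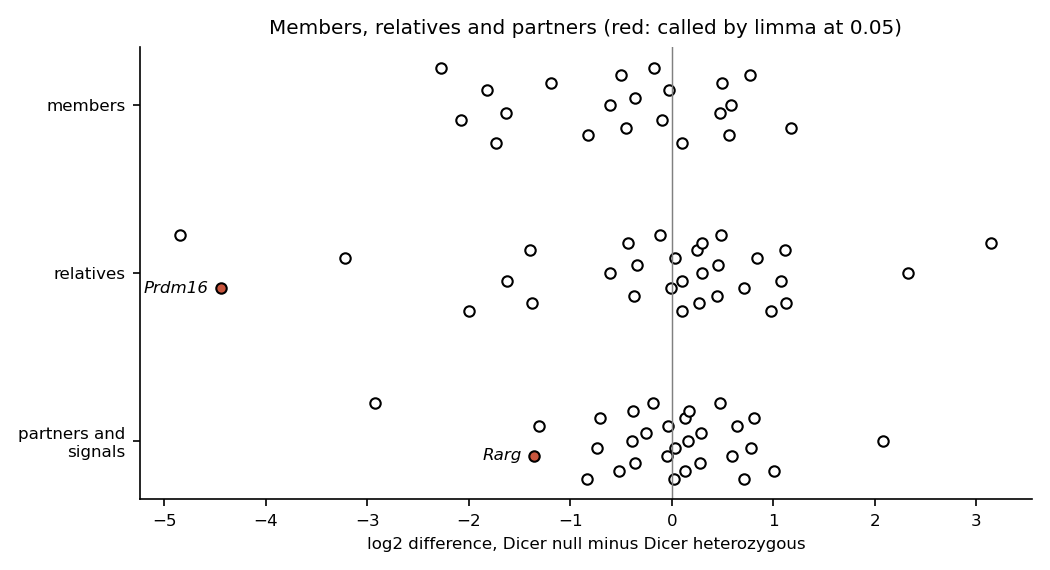
Log2 difference between null and heterozygous arrays for the 21 tested members, 31 tested relatives and 30 tested partners and signals, 1 point per gene, spread vertically for visibility. Prdm16 (-4.44) and Rarg (-1.36) are the 2 called genes, in red, and none of the members is called.

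Mecom and Prdm16 had lower values in all 3 null arrays, and they are related genes, so the sequence before their start sites is shown. RefSeq's promoter windows on GRCm38.p6 (250 bases before to 50 after a start) were at hand for 19 of the 30 members. For Mecom the first of 2 listed starts is used, chr3:30509760-30510009 on the minus strand, and for Prdm16 chr4:154636874-154637123 on the minus strand. Both lines give the 250 bases before the start, with the longest run that both share there, 10 bases, in capitals.
Mecom: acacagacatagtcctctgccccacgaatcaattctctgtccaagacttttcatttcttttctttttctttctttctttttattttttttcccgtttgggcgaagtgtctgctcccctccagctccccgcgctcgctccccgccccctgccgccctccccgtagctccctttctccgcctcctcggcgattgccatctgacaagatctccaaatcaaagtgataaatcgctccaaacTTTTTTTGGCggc
Prdm16: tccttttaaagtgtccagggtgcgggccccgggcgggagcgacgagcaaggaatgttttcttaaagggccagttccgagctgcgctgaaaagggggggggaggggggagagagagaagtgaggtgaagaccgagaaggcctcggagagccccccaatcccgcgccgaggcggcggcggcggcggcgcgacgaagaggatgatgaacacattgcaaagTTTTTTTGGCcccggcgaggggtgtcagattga
The shared run begins 13 bases before the start in Mecom and 33 bases before it in Prdm16. Just after the start the 2 windows share a longer run of 24 identical bases, from base 27 to 50 in Mecom and from base 10 to 33 in Prdm16. Among all 32851 windows of the table, no gene but these 2 holds that run on either strand. The pair was chosen after the values were seen, and the shared run describes the sequence only.

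The windows were also searched on both strands for 4 short motifs in the 250 bases before the start. TAATTA, the core bound by many homeodomain proteins, was found in 2 of the 22 windows of members (Msx2 and Prrx1), 9.09% against 4.84% of all windows. TGACAG, the Meis core, was in 13.6% of members' windows and 15.9% of all. AGGTGT, the T-box half-site, was in 4.55% and 11.8%, and TATAAA in 13.6% and 12.4%. No motif of the 4 contains another. A match is a description of letters and marks no site.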

How the data were processed

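The authors deposited 1 log2 value per probe set and array. Per the submitters' processing notes these were made with R 2.11.1 and GCRMA 2.20.0, which corrects background by probe sequence, normalizes quantiles and summarises probes. The log2 scale is read from the values. The sources used here name neither the settings nor the chip definition file. Quantile normalization removes any overall shift between arrays, and differences that start below 3 depend on the background model.

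Gene names came from the platform annotation, in which 34945 probe sets have 1 symbol, 932 have several and 9160 have none. Of those with 1 symbol 34741 matched RefSeq's GRCm38.p6 gene table by Entrez ID. A linear model was fitted with limma 3.58.1 in R 4.3.3 (lmFit, eBayes, two-sided, no block) to the 24385 probe sets with a mean of at least 3, with Benjamini-Hochberg adjustment over all of them. A gene was represented by its probe set with the highest mean. Where a group mean lay under 3, the fold was taken from 3 and is given as a lower bound ("at least").

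The members and the lists of relatives, partners and markers were chosen with earlier results of these data known. Values in every array are given for members called or among the 12 smallest p values, and for those with a within-group range over 2 log2 units. The called genes of other lists are named, and of the marker lists the fibroblast genes with the highest means. Other marker genes were named after their values were seen. Plots used matplotlib 3.10.9.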

Additional observations from a re-analysis of the deposited data

How the results depend on the processing

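All alternatives were planned. Unless stated, what caused a change was not tested. Signal over background limits the list, since 9 of 30 members had means under 3. Of the 21 tested members limma called 0, and 3 with gene-by-gene array weights (Mecom, Tbx3 and Msx2). Fits without 1 array called 0 to 1, Dlx5 or Msx2. Of all tested genes 395 were called, 0 with ordinary t statistics (2442 at an unadjusted p under 0.05, 4 of them members), 1496 with array weights, 77 with the proliferation covariate and 31 to 465 without 1 array. The median over members, -0.36, was -0.04 with no minimum, which adds the 9 dim members, -0.07 at a minimum of 2, -0.17 without s or x probe sets, -0.66 with the covariate and -0.54 to -0.14 without 1 array. Among relatives and partners 2 genes were called, 0 with ordinary t statistics, 13 with array weights, 1 with the covariate and 0 to 3 without 1 array (0 when any one of the null arrays was left out). Members with a wide range within a group were 6, and 3 at a minimum of 4. Other probe sets of the same sign were 17, and 35 with no minimum, which adds probe sets.

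The replicate block, with the number in the titles as a term, gave 73 genes, 0 members and 1 gene of the other lists. That gene was neither Prdm16 nor Rarg. Prdm16 then had a limma adjusted p of 0.0538 and Rarg 0.0876, within ranges over all alternatives of 0.00323 to 0.109 for Prdm16 and 0.00859 to 0.112 for Rarg. Rarg also lost its call with the mean over probe sets (-1.01, 0.0596) and with the covariate (0.0832). Between arrays with the same number, deviations from the group means had correlations of -0.06, 0.11 and 0.24, and not every array correlated best with its own number, so the numbers were not taken to pair the samples.

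Differences that were small beside their errors turned sign. Prrx1 (-0.10) gave 0.14 and 0.07 by other choices of probe set, 0.19 with the covariate and -0.29 to 0.05 without 1 array. Msx1 gave 0.02 with array weights and -1.16 to 0.26 without 1 array. Eya1 gave -1.28 with the covariate and -0.61 to 1.93 without 1 array, Foxd1 0.40 with values below 3 set to 3 and -1.96 to 0.93, and Sox4 0.36 with the covariate and -0.31 to 0.25. Without 1 array Tbx18 gave -0.30 to 0.54, Pitx1 -0.94 to 0.01 and Foxc1 -0.00 to 0.83. The other 13 tested members kept their sign in every alternative run on them, but not their size: Shox2 ran from -0.83 to -0.03 and Meis2 from 0.32 to 1.45.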

Other observations

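Among relatives and partners that limma did not call, some had large differences or wide ranges. They were picked after their values were seen. Eya4, a paralog of Eya1, read 4.12, 8.80 and 9.90 in heterozygous and 3.01, 2.89 and 2.39 in null arrays (limma adjusted p = 0.118). The homeobox gene Irx3 read 7.41, 6.55 and 8.26 against 4.06, 2.91 and 5.60 (limma adjusted p = 0.0748). Zic5, of the same family as Zic1, read 6.71, 7.42 and 2.34 against 8.38, 8.59 and 8.94 (limma adjusted p = 0.211), so heterozygous replicate 3 stood far below the other 5 arrays. The bone morphogenetic protein gene Bmp2, whose signal acts upstream of Msx genes, read 8.69, 3.36 and 4.20 against 3.12, 7.05 and 7.51 (limma adjusted p = 0.897). Bmp2 was thus high in heterozygous replicate 1 and in null replicates 2 and 3. A link of Bmp2 to the Msx genes in these arrays was not tested.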
